A study of Mus musculus with 6 samples.

Results

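Follicular CD23-positive B cells of the aged mouse lung were selected from single-cell RNA libraries by their transcripts. Each had 2 or more UMIs of the receptor chain gene Cd79a, 1 or more of the B cell surface gene Ms4a1 (CD20), 1 or more of Fcer2a (CD23), and 0 of the T cell gene Cd3e, the endothelial gene Cdh5 and the macrophage gene C1qa. A UMI is a molecular tag that counts each captured mRNA once. Barcodes below 300 genes or 500 UMIs, or above 15% mitochondrial UMIs, were left out. The rule found 3607 members among 94392 barcodes, of which 91156 passed the quality limits.

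The 6 libraries came from the lungs of 21-month-old male C57BL/6 mice, 1 library per sample. In 3 libraries the labelled genotype was p16-CreERT2/R26-LSL-DTR (p16-DTR), and in 3 it was p16-CreERT2 alone (control), so both groups carried the tamoxifen-inducible Cre under p16 control. Only the p16-DTR genotype carried the Cre-activated diphtheria toxin receptor at the Rosa26 locus. Every mouse received 5 days of tamoxifen and, 2 weeks later, 5 days of diphtheria toxin, and lungs were taken 2 weeks after that. The comparison asks what differed in lungs after p16-high cells had been targeted. Each library mixed 20000 sorted CD45-negative with 9000 CD45-positive cells, so the share of immune cells loaded into a library was set by the sort. Nothing in the labels ties samples of the same number to a shared litter or day.

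Follicular B cells are mature, antigen-inexperienced B cells that recirculate through blood and lymphoid follicles and bear both IgM and IgD. CD23, encoded by Fcer2a, is the low-affinity IgE receptor, which follicular B cells carry and marginal zone and B-1 cells largely lack. CD21, encoded by Cr2, is the complement receptor that lowers the threshold of B cell receptor signalling. In the lung these cells are found in the vasculature, in small lymphoid aggregates and in passage through the tissue.

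The members carried the markers of the label that the rule did not use. A UMI of Ighd was present in 98.5% of members and a UMI of Cr2 in 68.3%, and the median member held 17 Ighd and 32 Ighm UMIs. Cd79b, the partner chain of Cd79a in the receptor complex, was found in 98.7%. Ptprc, which encodes the CD45 of the sort, was found in 99.8%. Median depth was 14130 UMIs per member in the p16-DTR-labelled libraries and 13080.5 in those labelled control, with members between 925 and 182327 UMIs.

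At the edge of the rule, the 466 members with a single Fcer2a UMI were at 862 CPM (UMIs per 1000000 of the cells' summed UMIs) for Ighd and 111 CPM for Cr2, against 1096 and 180 in the 1894 members with at least 5 Fcer2a UMIs. The 1204 B cells that met every other condition but held 0 Fcer2a UMIs, called CD23-negative here, were at 351 and 38.2 CPM. Just outside the other thresholds lay 18 barcodes with 1 Cd79a UMI and 57 with 0 Ms4a1 UMIs. The rule did not use Ighd or Cr2, but it selected on Fcer2a in the same cells, so these values are given as a description with no test.

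After thinning every cell to 5000 UMIs, which put 3499 members and 1102 CD23-negative B cells at the same depth, further genes separated them descriptively. Of 18 follicular identity genes, 16 were detected in a larger share of members and 2 in a smaller share. Complement regulator Cd55 was detected in 90.4% of members and 72.7% of CD23-negative cells, and the quiescence factor Foxo1 in 86.0% and 73.2%, while Spib was detected in 33.7% and 43.5%. Of 15 homing and adhesion genes 8 were detected in more members and 7 in fewer. Ccr7, a receptor for lymph node chemokines, was detected in 84.4% and 69.7% and Ccr6 in 33.0% and 18.1%, while the adhesion receptor gene Cd44 was detected in 42.6% and 65.9%. Of 10 marginal zone genes 2 were detected in more members, Notch2 in 73.9% and 60.4% and Cd1d1 in 8.63% and 7.44%, and 8 in fewer, from Cd9 in 8.09% and 25.6% to Myof in 9.95% and 10.6%. All 8 B-1 genes and all 10 age-associated and memory genes measured were detected in fewer members, among them Bhlhe41 in 3.86% and 19.5% and Cd80 in 5.72% and 27.7%. Some were nearly level, with Zbtb20 in 90.3% and 91.4% and Cd27 in 1.66% and 1.81%. Jchain, the joining chain of secreted antibody, was found in 1.57% of members against 8.71% of CD23-negative cells. These gaps follow from a choice made on Fcer2a in the same cells and were not tested.

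Class switching was rare among the members. UMIs of switched heavy chain constant genes exceeded the sum of Ighm and Ighd in 39 of 3607 members (1.08%), against 88 of 1204 CD23-negative B cells (7.31%). By library the switched share of members was 1.66%, 1.61% and 0.792% in those labelled p16-DTR and 0.708%, 0.858% and 1.13% in those labelled control, so the groups overlapped.

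Genes listed as markers of other cells differed widely in how often members held them. A UMI of Pecam1, listed for endothelium, was found in 94.1% of members, and at 5000 UMIs per cell in 77.5% of members, 63.5% of CD23-negative B cells and 42.2% of T cells. Surfactant gene Sftpc was found in 70.2% of members, and at 5000 UMIs in 35.4%, 35.5% and 34.6% of the same populations. Lyz2 was found in 43.7% of members, while Cd3d was found in 2.19%, Nkg7 in 1.61% and C1qb in 1.61%. Because leaving out every member with 2 or more UMIs of any marker of another cell type kept only 188 members, a narrower removal was added after seeing the data. It left out members with over 2 times the median UMI count of their library's members, and members with at least 2 UMIs of any marker of another cell type that under 10% of members detected. This set aside 354 members labelled p16-DTR (22.0%) and 447 labelled control (22.4%), and the 2806 left are called the members after removal of possible doublets. Over the 15 pairs of libraries 59 to 94 barcodes were shared, at most 0.586%, and 2 shared barcodes were members.

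The members were 481, 497 and 631 barcodes in the p16-DTR-labelled libraries and 706, 583 and 709 in those labelled control. As a share of all barcodes with a Ptprc UMI they made up 8.73%, 8.16% and 9.27% against 13.9%, 14.0% and 12.8%. Every p16-DTR-labelled library was below every library labelled control. The means were 8.72% ± 0.553 and 13.5% ± 0.680 (SD, n = 3 each), a difference of -4.82 percentage points (exact two-sided permutation p = 0.1, the smallest that 3 against 3 can give, and 0.2 after Benjamini-Hochberg adjustment over 6 tests). The share sets the members against all other barcodes with a Ptprc UMI, a stand-in for the CD45-positive sort, which the counts do not record. A single UMI was enough, so cells other than leukocytes can be among them. Barcodes with a Ptprc UMI numbered 5507, 6089 and 6808 in the p16-DTR-labelled libraries, of 14760, 15079 and 15361 that passed the quality limits. In those labelled control they were 5077, 4175 and 5557 of 16884, 13025 and 16047. Their part of the passing barcodes was higher in every p16-DTR-labelled library than in every library labelled control. The denominator therefore differed between the groups too. Fewer follicular B cells and more of the other barcodes cannot be told apart.

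Within B cells the members were not clearly fewer. They made up 81.0%, 65.5% and 71.1% of the B cells in the p16-DTR-labelled libraries and 78.4%, 76.7% and 78.0% in those labelled control. Replicate 1 labelled p16-DTR had the highest share of all and replicate 2 the lowest, and the groups overlapped (difference -5.18 percentage points, exact permutation p = 0.4, adjusted 0.4). The difference was -9.42 without p16-DTR replicate 1 (exact permutation p = 0.1, the smallest possible), -1.67 without p16-DTR replicate 2 and -2.69 after removal of possible doublets.

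**Figure D1:**
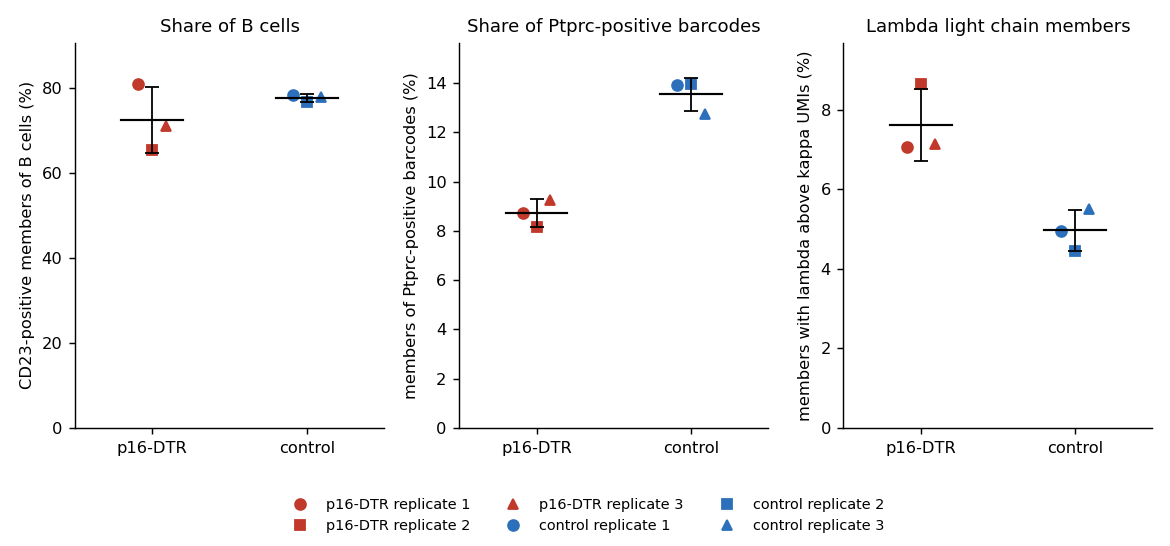
Shares per library (points), with the mean (line) and SD (bar) of 3 libraries per group. Left, members as a percentage of B cells; middle, members as a percentage of barcodes with a Ptprc UMI; right, members whose lambda light chain UMIs exceeded kappa. The groups overlapped in the left panel and not in the other panels.

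The members used the kappa light chain far more often than lambda. Most held UMIs of both, 95.6% to 97.3% of members per library, with medians of 69 to 91 kappa and 10 to 14 lambda UMIs. A member was therefore counted as lambda by which chain had more UMIs. UMIs of the lambda constant genes exceeded those of Igkc in 7.07%, 8.65% and 7.13% of members labelled p16-DTR and in 4.96%, 4.46% and 5.50% of those labelled control. All p16-DTR-labelled libraries lay above all labelled control (difference 2.64 percentage points, exact permutation p = 0.1, the smallest possible, adjusted 0.2). The difference was 2.90 after removal of possible doublets, 1.71 where lambda had to be at least 5 times kappa, and 14.4 (16.6% against 2.17%) in the 188 members kept by the planned doublet rule. In CD23-negative B cells of the same libraries the shares were 5.31%, 10.7% and 9.73% against 11.8%, 10.2% and 5.50%, and there the groups overlapped.

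The constant-region UMI sums rested in part on single members. In replicate 3 labelled p16-DTR, 1 member held 33435 of the 36934 Iglc1 UMIs (90.5%). Summed Iglc1 was 475, 386 and 2966 CPM against 247, 267 and 202 with all members (log2 fold change 2.45), and the log2 fold change was 0.59 after removal of possible doublets. Igkc went from -0.55 to 0.19 and Ighm from -0.59 to 0.12 in the same way. None of these passed an adjusted p of 0.05 in edgeR.

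V gene use was broad. A heavy chain V gene could be named in 1953 members (54.1%), taking the one with the most UMIs, at least 2 and no tie, and 100 of the 185 Ighv genes listed were seen. Ighv1-26 led with 118 members (6.04%), followed by Ighv1-64 and Ighv9-3 with 76 each, Ighv3-6 with 74 and Ighv1-82 with 67. The Ighv1 family made up between 52.9% and 59.8% of the members assigned in each library. A light chain V gene was named in 1342 members (37.2%), led by Igkv1-117 with 126. V genes of near-identical sequence could share reads, so single V genes are uncertain.

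The effective number of heavy V genes, the inverse Simpson number at equal cell numbers, was 37.6, 39.0 and 37.4 in the p16-DTR-labelled libraries and 41.7, 36.4 and 40.9 in those labelled control (exact permutation p = 0.4, adjusted 0.4). For the light chain it was 21.9, 27.8 and 25.1 against 25.6, 30.6 and 28.8 (exact permutation p = 0.2, adjusted 0.3). Both sets overlapped between groups. The heavy chain difference of -1.64 became -3.28 without control replicate 2 (exact permutation p = 0.1, the smallest possible) and -0.62 without control replicate 1. Counting light V genes from 1 UMI gave 31.6, 34.143 and 31.2 against 34.146, 38.4 and 34.3, where the groups did not overlap, by a margin in the third decimal (exact permutation p = 0.1, the smallest possible). From 5 UMIs the light chain difference was -0.33, against -3.40. Leaving out a library each gave light chain differences from -4.84 to -1.88. The leading heavy V gene of a library held 5.49% to 7.88% of its assigned members.

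Cdkn2a encodes the cell cycle inhibitor p16 and, from an alternative start, p19Arf, which counts from the 3' end do not separate. It lies on chromosome 4 at 89274471 to 89294653 (GRCm38). In the members it was at 10.7, 15.3 and 12.9 CPM in the p16-DTR-labelled libraries and at 0, 0.432 and 0.374 in those labelled control. The 3 p16-DTR-labelled libraries held 393 Cdkn2a UMIs in members and the 3 labelled control held 9. The higher level was in the libraries whose labelled genotype makes p16-high cells sensitive to the toxin, and groups are therefore named here by their labels. The fitted log2 fold change was 5.61 (SE 0.53), and with all members it did not pass (edgeR quasi-likelihood test, Benjamini-Hochberg adjusted p = 0.148).

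After removal of possible doublets, a rule added after seeing the data, Cdkn2a passed the threshold. Earlier results of these data had shown it to differ in B cells, so the call is no independent support. There were 245 Cdkn2a UMIs in the members labelled p16-DTR, at 10.8, 17.1 and 14.0 CPM, and 0 in those labelled control. In these members alone, against a floor of 3 counts over the control group, Cdkn2a was at least 92.2-fold higher (edgeR adjusted p = 4.87e-05). With all members the pooled fold was 50.9. The 0 depends on the removal, which set aside the 3 members labelled control that held a Cdkn2a UMI. Leaving out each library in turn gave edgeR adjusted p-values from 3.15e-05 to 0.00073, with control at 0 in each fit.

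Cdkn2a was spread over many members. At 5000 UMIs per cell, 92 of 1573 members labelled p16-DTR had a Cdkn2a UMI (5.85%, 95% Wilson interval 4.79 to 7.12) and 0 of 1926 labelled control did. A count of 0 allows up to 3 cells, a share of up to 0.156%, and the Wilson interval of that 0 reaches 0.199%. Both limit the cells with a UMI, not the cells that express the gene. By library the shares were 4.88%, 6.74% and 5.90% against 0% in each control (exact permutation p = 0.1, adjusted 0.2). No thinned member held more than 3 Cdkn2a UMIs. Without thinning the shares were 16.5% and 0.150%. These intervals and limits cover counting error only.

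The same thinning put other cells of the libraries beside the members. CD23-negative B cells had a Cdkn2a UMI in 5.53% of cells labelled p16-DTR and 0.198% of those labelled control, and T cells (at least 2 Cd3e UMIs and no B cell genes) in 7.52% and 1.23%. Neutrophils, taken as cells that should lack the gene, had it in 1.14% and 0.0625%, with median depths of 9856 to 11941 and 9362 to 12052 UMIs per library. They held at least 10 UMIs each of S100a8 and S100a9, a UMI of Retnlg and no Cd79a. Absence of Cdh5 and C1qa was not required of them, so barcodes of mixed cells can be among them. Without thinning, the highest Cdkn2a count in a cell labelled p16-DTR was 14 among neutrophils and 7 among members. In the p16-DTR-labelled libraries the member share was above that of neutrophils in each library, where the neutrophil shares were 0.736%, 0.493% and 2.25%.

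The Cdkn2a difference was not shown to be particular to the members. Its difference of log2 fold changes was 2.65 (SE 0.47) against CD23-negative B cells and 3.05 (SE 0.43) against T cells, higher in the members in both, with edgeR interaction adjusted p of 0.398 and 0.403. Over all genes the interaction test passed 0 of 13330 genes (0%) against CD23-negative B cells and 0 of 14835 (0%) against T cells. At an unadjusted p under 0.05 there were 787 (5.9%) and 1149 (7.75%).

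**Figure D2:**
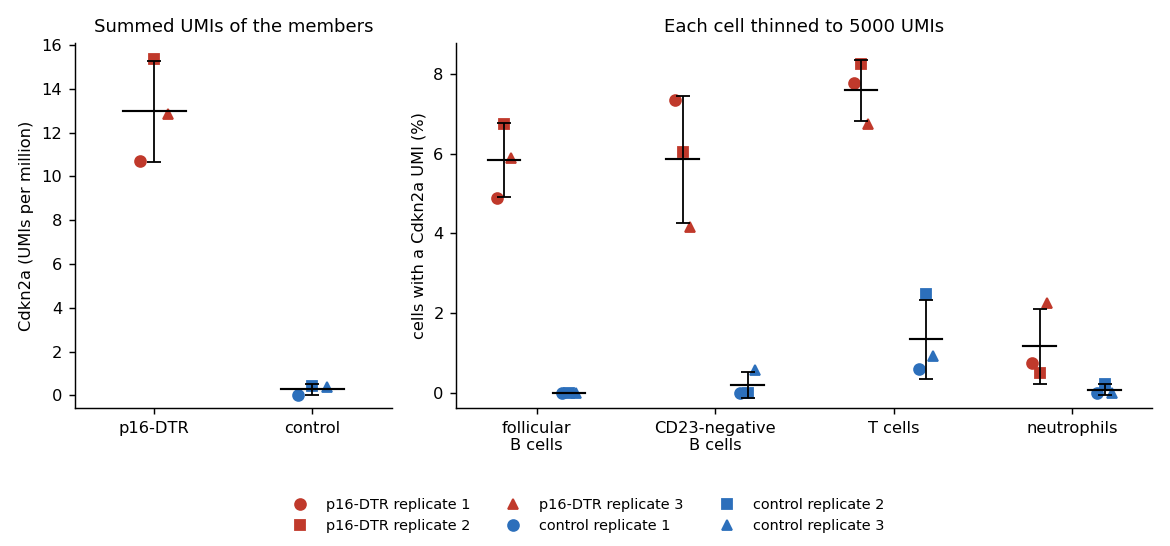
Cdkn2a per library, with mean and SD of 3 libraries. Left, CPM in the members' summed UMIs; right, percentage of cells with a Cdkn2a UMI when each cell is thinned to 5000 UMIs, in 4 populations. In the members the p16-DTR-labelled libraries sit between 4.88% and 6.74% and each labelled control at 0%.

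Other genes of the mouse model gave the following values. Gt(ROSA)26Sor, the noncoding transcript of the Rosa26 locus, was at 11.6, 12.2 and 10.3 CPM in the p16-DTR-labelled libraries and 17.9, 16.9 and 17.1 in those labelled control, without overlap (log2 fold change -0.59, SE 0.11, edgeR adjusted p = 0.466). It was also lower without overlap in CD23-negative B cells (-0.47, adjusted p = 0.83) and T cells (-0.93, adjusted p = 0.0864) of the same libraries. Hbegf, the mouse counterpart of the human gene for the toxin's receptor, was at 1.08, 0.639 and 0.482 against 0.558, 2.59 and 2.17, with overlap (adjusted p = 0.618). Cdkn2b, the neighbour of Cdkn2a that encodes p15, was too low to test at 0.107 to 2.05 CPM. Cdkn1a, which encodes p21, was at 34.1, 46.0 and 47.7 against 75.0, 27.2 and 45.6, with the highest and the lowest values both in the control label (log2 fold change -0.19, adjusted p = 0.913). After removal of possible doublets Cdkn1a was at 6.00, 6.48 and 6.78 CPM against 7.21, 5.70 and 8.16, far lower in every library and again with overlap. In the list of cell cycle arrest and p53 genes 2 of 16 tested were higher at an unadjusted p under 0.05, Cdkn2a and the death effector Bax (log2 fold change 0.19), and 0 were lower, beside 4.61% higher and 4.05% lower over all genes. Without possible doublets 2 of 15 were higher and 1 lower at that p, beside 6.18% and 5.03% of all genes.

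Across all genes, edgeR's quasi-likelihood test on summed UMIs called 0 of 13346 genes (0%) between the groups with all members. At an unadjusted p under 0.05 there were 1156 genes (8.66%), 615 higher (4.61%) and 541 lower (4.05%) in the p16-DTR-labelled libraries. Groups did not overlap in 759 genes that were higher (5.69%) and 1303 that were lower (9.76%). DESeq2 called 80 genes, 55 higher and 25 lower. It filters genes by its own rule, so this count has another base than edgeR's and no share is given.

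After removal of possible doublets edgeR called 17 of 11087 genes (0.153%), 11 higher (0.0992%) and 6 lower (0.0541%). All 17 had the same direction with all members, 16 of them at an unadjusted p under 0.05, and 14 without overlap of the groups. The members left after removal are a subset of all members in the same libraries, so this is no independent support. Leaving out each library in turn, 6 of the 17 stayed called every time, Cdkn2a, Ifi27l2a, Antxr2, Arhgap31, Cndp2 and Trim30a, and 11 did not. DESeq2 on the same members, again with its own base of genes, called 83 genes. Among them were 9 of the 17, and DESeq2 gave no adjusted p for the other 8. At an unadjusted p under 0.05 there were 1243 genes (11.2%), 685 higher (6.18%) and 558 lower (5.03%), and groups did not overlap in 693 higher (6.25%) and 1210 lower (10.9%).

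Of the 11 genes that rose, Ifi27l2a and Ifi203 belong to the interferon response list. Ifi27l2a, an interferon-inducible gene of a small membrane protein, was at 217, 205 and 173 CPM in the members labelled p16-DTR after that removal and 119, 85.0 and 109 in those labelled control (log2 fold change 0.95, SE 0.11, edgeR adjusted p = 0.00375). With all members it was at 252, 305 and 207 against 199, 96.8 and 160.0, still without overlap. Trim30a, a tripartite motif protein, rose from 97.2, 92.2 and 90.1 to 126, 142 and 129 (log2 fold change 0.53, adjusted p = 0.00488). The 2 sets lay apart by more than the spread within either. In CD23-negative B cells and T cells, with no removal, the log2 fold changes were 0.44 and 0.72 for Ifi27l2a. For Trim30a they were 0.31 and 0.45, and none of these passed the adjusted threshold.

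The other genes that rose lost the call when some library was left out. Ifi213 and Ifi203, members of the family of interferon-inducible DNA sensors, rose by 0.70 and 0.42 on the log2 scale (adjusted p = 0.012 and 0.0416). Slfn5, a Schlafen gene, rose by 0.66 (adjusted p = 0.0128), and Ly6a, which encodes the surface protein Sca-1, by 0.86 (adjusted p = 0.0378). B2m, the light chain of class I molecules, rose by 0.40 (adjusted p = 0.0383), and Psmb9, an immunoproteasome subunit, by 0.46 (adjusted p = 0.0378). Tlr7, the endosomal sensor of single-stranded RNA on the X chromosome, was at 16.5, 20.2 and 20.2 CPM against 6.77, 9.56 and 9.31 (log2 fold change 1.18, SE 0.17, adjusted p = 0.012). The intermediate filament gene Vim rose by 0.48 (adjusted p = 0.0194).

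Leaving out a single library ended these calls as follows. Without control replicate 1, Ifi213, Ifi203, Ly6a, B2m, Psmb9 and Vim were not called, and without p16-DTR replicate 2 neither were these nor Tlr7 and Slfn5. Without p16-DTR replicate 3, Tlr7, Ifi203, Ly6a, B2m, Psmb9 and Vim were lost. Ifi203 was also lost without p16-DTR replicate 1, and Ifi203 and B2m without control replicate 2. Their highest adjusted p over the 6 fits was between 0.0661 (Slfn5) and 0.214 (B2m and Ifi203).

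Of the 6 genes that fell, 3 kept the call without each library. Antxr2, a receptor for anthrax toxin and a collagen-binding surface protein, was at 111, 120.0 and 100.3 CPM against 218, 168 and 189 (log2 fold change -0.77, SE 0.09, adjusted p = 0.00375). With all members the groups overlapped, at 176, 212 and 189 against 348, 190.3 and 258. Arhgap31, which switches off Rac and Cdc42, fell by 0.64 on the log2 scale (81.7, 77.7 and 71.5 against 128, 116 and 122, adjusted p = 0.00375). Cndp2, a dipeptidase gene, was at 11.8, 8.19 and 8.76 against 27.4, 22.1 and 23.1 (log2 fold change -1.31, adjusted p = 0.00375). The log2 fold changes were also negative in CD23-negative B cells and T cells of the same libraries, with no removal of possible doublets. They were -0.41 and -0.14 for Antxr2, -0.33 and -0.52 for Arhgap31, and -0.88 and -0.62 for Cndp2, with none past the adjusted threshold.

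The other 3 that fell were the adaptor gene Skap1 (log2 fold change -1.66, adjusted p = 0.0194), carbonic anhydrase gene Car2 (-0.81, 0.0419) and centriole kinase gene Plk4 (-0.61, 0.0484). Skap1 was not called without p16-DTR replicate 1 or 3, Car2 not without either of these, p16-DTR replicate 2 or control replicate 1, and Plk4 kept the call in 1 fit alone, that without control replicate 3. Their values did not overlap between groups after the removal. Skap1 was low in these members, at a mean of 4.70 CPM in the p16-DTR label and 15.3 in the control label. In T cells of the same libraries its means were 1426 and 1306 CPM. Its log2 fold change was 0.14 in T cells and 0.97 in CD23-negative B cells. Whether transcripts of T cells had a part in this call was not tested.

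**Figure D3:**
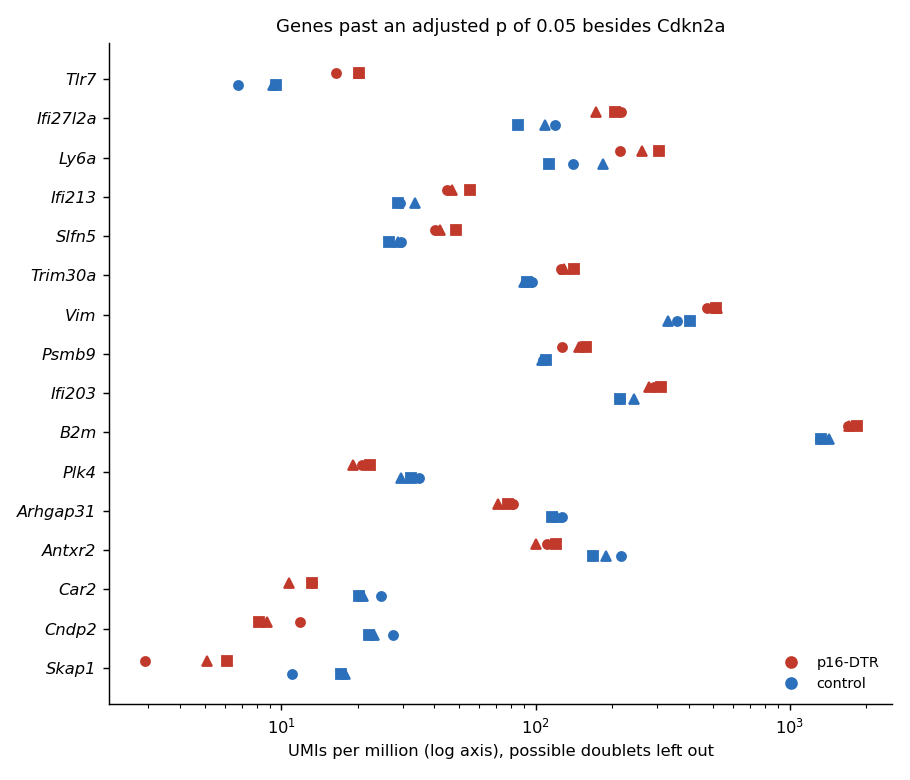
CPM (log axis) of the 16 genes besides Cdkn2a that passed an adjusted p of 0.05 after removal of possible doublets. Each point is 1 library, with circle, square and triangle for replicates 1, 2 and 3, and the 2 groups do not overlap in any of the 16 genes.

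The interferon response list holds 22 genes, of which 21 were tested and Ifi44 was too low. With all members every one of the 21 had a positive log2 fold change, 10 at an unadjusted p under 0.05 and 0 negative, and the median was 0.50, against -0.00086 over all genes tested. The groups did not overlap in 8 of them, all higher. Over all genes 4.61% were higher at that p and 5.69% were higher without overlap. None passed the adjusted threshold with all members (edgeR), and Ifi27l2a and Ifi203 did after removal of possible doublets, where the median of 20 genes was 0.62. The list was drawn up with earlier results of these data known.

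Among its regulators, Irf9, a transcription factor, was at 49.0, 47.5 and 48.5 CPM against 41.8, 42.2 and 46.7, without overlap (log2 fold change 0.17). Among the effectors, Ifi47, a GTPase gene, was at 22.5, 41.6 and 28.1 against 18.0, 17.4 and 22.3 (0.69), and Bst2, the tetherin that holds back budding viruses, at 47.7, 71.9 and 50.1 against 43.6, 27.2 and 44.8 (0.57). Isg15, a ubiquitin-like modifier, was at 11.9, 19.8 and 6.51 against 19.3, 3.02 and 8.31, with overlap and with control replicate 1 close to replicate 2 labelled p16-DTR. Replicate 2 labelled p16-DTR was the highest library for Ifi47 and Bst2.

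The list's median was also positive in the other lymphocytes of these libraries, 0.35 in CD23-negative B cells and 0.54 in T cells. The same libraries enter all 3 comparisons. As background, edgeR passed 0 of 11424 genes (0%) in CD23-negative B cells, with 5.76% at an unadjusted p under 0.05 (3.34% higher, 2.42% lower) and groups apart in 4.45% higher and 6.66% lower. In T cells it passed 0 of 14418 (0%), with 13.9% at that level (5.86% higher, 8.01% lower) and groups apart in 7.71% higher and 11.1% lower. None of the genes in the list passed the interaction test.

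**Figure D4:**
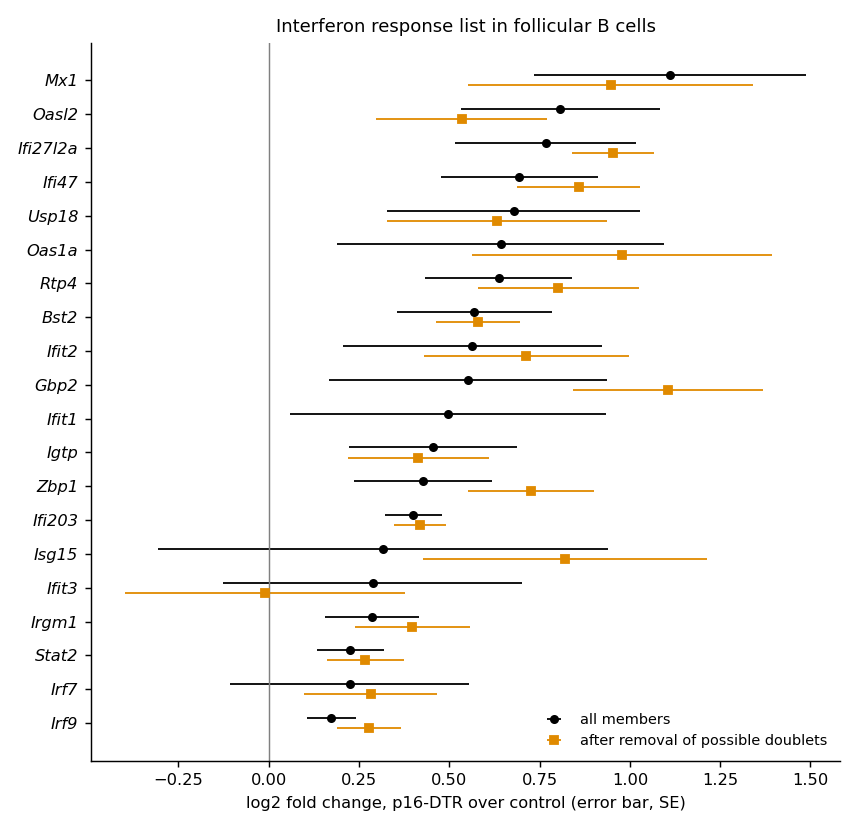
Log2 fold change (p16-DTR-labelled libraries over control) with its SE for 20 of the 21 tested genes of the interferon response list (1 is not reported here), with all members (circles) and after removal of possible doublets (squares). With all members every point drawn lies right of 0, and after the removal Ifit3 alone of those drawn does not.

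The stretches before the start of these genes were searched because the interferon list holds genes known to be induced through shared promoter elements. The letters GAAA, any 2 bases and GAAA again, a form of the interferon-stimulated response element (ISRE), and TTCNNNGAA, a form of the gamma-activated sequence (GAS), were looked for on both strands in the 250 bases before each start in RefSeq's promoters of GRCm38.p6. Each motif was counted apart, also where the 2 overlap. The ISRE letters were in 3.46% of 27025 genes, and in 10 of the 16 list genes that the table holds. Of the 11 genes that rose after removal of possible doublets 8 were in the table, and 5 of these held them, B2m, Ifi203, Ifi213, Slfn5 and Trim30a. The GAS letters were in 8.13% of all genes, 4 of the 16 and 0 of the 8. A match is a description of these letters and not evidence of binding. Of the 5, 3 are shown, 5' to 3' on the gene's strand, with the ISRE letters (or their reverse complement) in capitals:
B2m (chr2:122147437-122147686, plus strand): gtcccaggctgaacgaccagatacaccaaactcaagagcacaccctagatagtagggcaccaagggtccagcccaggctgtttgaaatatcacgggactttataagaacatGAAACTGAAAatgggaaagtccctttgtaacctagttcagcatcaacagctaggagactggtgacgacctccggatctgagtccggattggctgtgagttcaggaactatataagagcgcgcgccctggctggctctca
Ifi213 (chr1:173599273-173599522, minus strand): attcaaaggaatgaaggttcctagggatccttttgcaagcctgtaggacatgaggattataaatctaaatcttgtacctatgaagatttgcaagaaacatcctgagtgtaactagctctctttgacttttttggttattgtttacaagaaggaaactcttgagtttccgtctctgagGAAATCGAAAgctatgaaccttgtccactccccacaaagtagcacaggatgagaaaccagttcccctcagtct
Trim30a (chr7:104465194-104465443, minus strand): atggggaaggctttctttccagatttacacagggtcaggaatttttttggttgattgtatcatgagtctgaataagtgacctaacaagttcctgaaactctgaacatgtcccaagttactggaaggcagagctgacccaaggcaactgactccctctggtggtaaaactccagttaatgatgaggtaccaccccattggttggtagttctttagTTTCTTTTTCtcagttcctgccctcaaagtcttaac
In B2m the match begins 139 bases before the start, in Ifi213 73 and in Trim30a 36, where it lies on the other strand. RefSeq lists a second start of Trim30a, whose 250 bases (chr7:104446126-104446375) do not hold the ISRE letters, and one of the 2 starts of Ifi203 does not either.

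Among antigen presentation genes, the class I genes named here had higher values and the class II genes named here nearly level ones. None of the list passed the adjusted threshold with all members. H2-K1, a class I heavy chain, was at 1097, 1329 and 1179 CPM against 934, 974 and 1063 (log2 fold change 0.30), and H2-D1 at 1300.5, 1509 and 1297 against 1219.6, 1175 and 1255 (0.19), both without overlap. B2m with all members was at 1775, 2024 and 1797 against 1476, 1450.1 and 1553 (0.34). With the peptide transporter gene Tap1 these were the 4 of 16 genes higher at an unadjusted p under 0.05, and 0 were lower. Over all genes 4.61% were higher at that p and 5.69% were higher without overlap. With possible doublets removed, 5 were higher and 1 lower, where 6.18% and 5.03% of all genes were. Class II genes H2-Aa, H2-Ab1, H2-Eb1 and Cd74 had log2 fold changes between -0.043 and 0.0045. The list's median was 0.039, with 10 positive and 6 negative fold changes. With all members 3 of its genes were higher and 1 lower without overlap, where 5.69% and 9.76% of all genes were.

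Of 12 genes tested in the dissociation and heat shock list, 5 were higher at an unadjusted p under 0.05, where 4.61% of all genes were, and 0 lower. The groups did not overlap in 3, all higher, where 5.69% of all genes were higher without overlap. In the list 11 fold changes were positive and 1 negative, with a median log2 fold change of 0.40 (0.26 over the 10 genes tested after removal of possible doublets). Over all genes tested 6648 were positive and 6698 negative, with a median of -0.00086. Hspa8, a constitutive Hsp70, was at 707, 915 and 689.6 CPM against 527, 490.3 and 609.8 (log2 fold change 0.53), and the mitochondrial co-chaperone gene Hspe1 at 162, 186 and 171 against 132, 127 and 141 (0.40), both without overlap. Hsp90ab1 was at 937, 1286 and 985 against 807, 766 and 901 (0.40). None passed the adjusted threshold, before or after the removal. The median was 0.46 in CD23-negative B cells and 0.17 in T cells of the same libraries. The list holds genes that tissue digestion is known to induce, and its part in the other differences was not tested.

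Of 19 receptor complex and signalling genes 0 were higher and 3 lower at an unadjusted p under 0.05, the inhibitory phosphatase gene Inpp5d (log2 fold change -0.21), the kinase gene Lyn (-0.13) and the inhibitory Fc receptor gene Fcgr2b (-0.14), and the median was 0.020. Cr2 was at 136, 155 and 187 CPM against 131, 133 and 202, and Ighd at 1069, 910.3 and 1025 against 1022, 1224 and 996, both with overlap. Of 18 follicular identity genes the factor Spib was higher (0.26) at that p, and Foxo1, Cd55 and Bach2 were lower. Foxo1 was at 546, 495 and 536 against 650.2, 664 and 615 (log2 fold change -0.27, SE 0.06, adjusted p = 0.466). Cd55 was at 663, 582 and 560.2 against 790.1, 739 and 739 (-0.30), and Bach2, a repressor of plasma cell fate, differed by -0.15. All 3 were without overlap, and none passed. Over all genes 4.61% were higher and 4.05% lower at that p, and 9.76% were lower without overlap. Without possible doublets 1 receptor gene was higher and 2 lower, and 3 identity genes were higher and 3 lower, beside 6.18% and 5.03% of all genes.

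**Figure D5:**
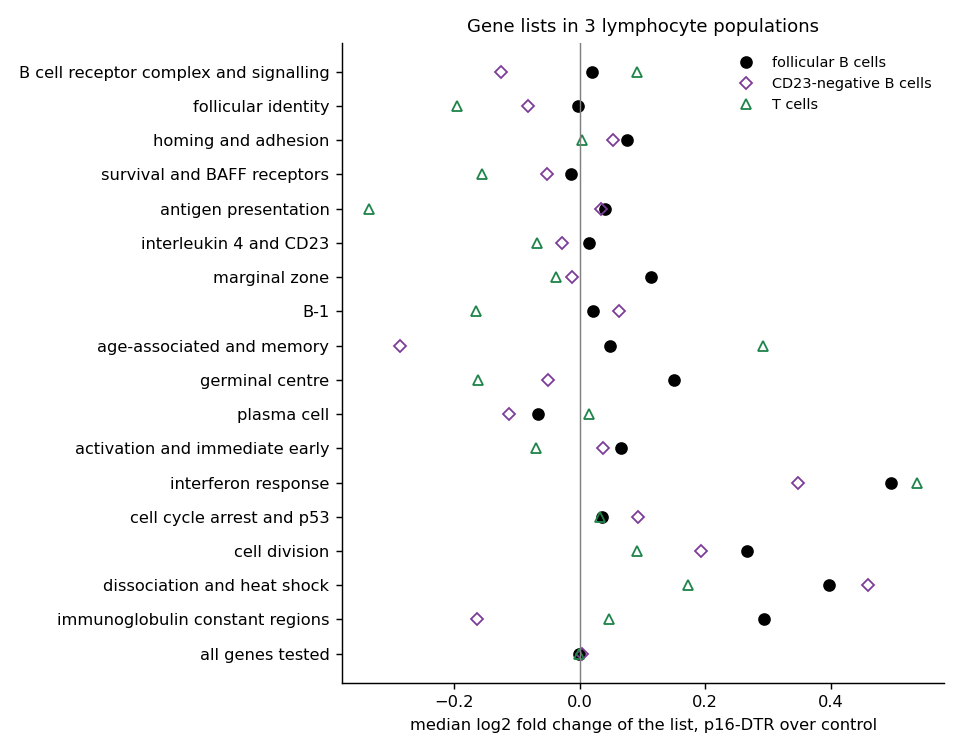
Median log2 fold change (p16-DTR-labelled libraries over control) of each gene list in the members, CD23-negative B cells and T cells. Of the lists drawn, the interferon response list has the highest median in the members, 0.50; marker lists of other cells are not drawn, and those of natural killer, T and dendritic cells had medians of 1.61, 0.76 and 0.62.

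Of 16 tested survival and BAFF receptor genes only Bcl2, which blocks mitochondrial death, was higher at an unadjusted p under 0.05 (247, 268 and 291 CPM against 235, 228 and 251, log2 fold change 0.20), and the BAFF receptor gene Tnfrsf13c had 0.11. Of 12 genes of interleukin 4 signalling and CD23 handling, the kinase gene Jak3 (0.38) and Cd47 (0.16) were higher at that p and 0 lower, and Il4ra had -0.067. Of 15 homing and adhesion genes, 2 were higher at that p, Itgal (0.32) and Itgb2 (0.30), the chains of LFA-1, and 0 were lower at that p, with 12 positive and 3 negative fold changes. Over all genes 4.61% were higher and 4.05% lower at that p, and none of these genes passed the adjusted threshold.

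Early response genes split. Dusp1, a phosphatase of stress kinases, was at 386, 448 and 396 CPM against 331, 264 and 308 (log2 fold change 0.47), and Myc at 151, 119 and 127 against 78.7, 98.6 and 115 (0.46). Nr4a1, induced by antigen receptor signals, was at 351, 327 and 302 against 455, 361 and 418 (-0.31), and Btg2 at 534, 494 and 497 against 706, 566 and 623 (-0.29). With Ier2 (-0.22) these made 2 higher and 3 lower of 21 at an unadjusted p under 0.05, all without overlap and none past the adjusted threshold. Over all genes 4.61% were higher and 4.05% lower at that p, and 5.69% were higher and 9.76% lower without overlap. With possible doublets removed, 6 of the 21 were higher and 4 lower at that p, beside 6.18% and 5.03% of all genes.

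With all members the lists of other B cell states held the following genes at an unadjusted p under 0.05, and none past the adjusted threshold. Of 10 marginal zone genes Cd9 was higher at that p (74.3, 62.8 and 79.9 CPM against 49.4, 29.5 and 49.0, log2 fold change 0.78) and 0 lower. Of 10 age-associated and memory genes Fcrl5 (0.62) and Cxcr3 (1.06) were higher at that p and 0 lower, with 5 positive and 5 negative fold changes and a median of 0.048. Of 10 germinal centre genes 0 reached that p in either direction, and of 8 B-1 genes Spn was higher (0.65). Of 10 tested plasma cell genes Derl3 was lower (-0.87), and of 14 cell division genes Tubb5 was higher (0.31). These counts stand beside 4.61% higher and 4.05% lower over all genes.

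After removal of possible doublets the counts of these lists were different, again with none past the adjusted threshold. Higher at an unadjusted p under 0.05 were 3 of 9 marginal zone genes tested, 3 of 7 germinal centre genes, 3 of 9 plasma cell genes and 3 of 8 age-associated and memory genes, with 0, 0, 1 and 1 lower. The age-associated and memory list then had 7 positive and 1 negative fold changes and a median of 0.34. Of 6 B-1 genes 0 reached that p, and of 10 cell division genes 1 was higher and 1 lower. Over all genes 6.18% were higher and 5.03% lower.

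Markers of other cells moved with the groups in part. Of 5 natural killer cell markers Gzma (13.4, 0.746 and 8.43 CPM against 0.957, 0.648 and 1.42) and Nkg7 were higher at an unadjusted p under 0.05, Ncr1 was at 0 in 2 libraries, and the markers' summed level was 2.66 to 23.8 in the p16-DTR-labelled libraries and 1.30 to 6.29 in those labelled control. Of 7 T cell markers 4 were tested and Trbc2 was higher at that p, with summed levels of 15.3 to 22.6 against 10.7 to 15.7. Of 8 macrophage or monocyte markers 6 were tested and C1qb was higher at that p, with summed levels of 955 to 1672 against 1101 to 1654. Neutrophil markers were at 171 in control replicate 2 and 834 to 1718 in the other 5 libraries. Over all genes 4.61% were higher at that p. None of these markers passed the adjusted threshold, and their part in the differences with all members was not tested.

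By the smallest unadjusted p with all members, the 10 genes higher were Cdkn2a, Tlr7, Gm26532, Kctd5, Hspe1, Pdpk1, Mitf, Tagln2, B2m and Gm2000. Kctd5 and Pdpk1 are neighbours on chromosome 17 (24047734 to 24073485 and 24073680 to 24150924, GRCm38). Kctd5 was at 28.4, 28.9 and 26.4 CPM against 20.1, 17.5 and 16.8 (log2 fold change 0.64), and Pdpk1, a kinase that activates Akt, at 98.2, 102 and 111 against 75.4, 82.0 and 80.7 (0.41). Both were also higher without overlap in CD23-negative B cells (0.59 and 0.55) and T cells (0.61 and 0.57), with neither past the adjusted threshold. Mitf, a factor of pigment and mast cells, had a log2 fold change of 0.62 with all members and 0.11 after removal of possible doublets. The 10 lower were Cyth1, Lemd3, Zc3h6, Atp6v0a1, Txnip, Gt(ROSA)26Sor, Plekha6, Skap1, Ppp1r10 and Chst11. Cyth1, an exchange factor for small GTPases, was at 983, 955 and 910.0 against 1239, 1210.5 and 1233 (-0.35), and Txnip, which restrains glucose uptake, at 424, 439.5 and 428 against 557, 519.7 and 512 (-0.28). Apart from Cdkn2a, every one of the 20 had an adjusted p of 0.466.

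Members also differed among themselves within a library. After removal of possible doublets and thinning, 1675 genes had a mean of at least 0.5 UMI, and the median ratio of variance to mean (Fano factor, 1 for random counting) was 1.37. It was highest for the ribosomal RNA-derived Gm42418 (14.8), the light chain genes Iglc1 (13.4), Igkc (8.60) and Iglc2 (6.19), of which a cell usually expresses 1 type, and Camk1d (6.24). Actin gene Actb (5.75), Mef2c (5.65), Malat1 (5.24), the recirculation factor Klf2 (5.04), Dennd4a (4.83), costimulator gene Cd86 (4.83) and Fos (4.81) followed. These are medians over the 6 libraries, given with no test.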

How the data were processed

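Per the labels' protocols, single-cell 3' libraries (10x GEM-X) were made from sorted lung cells. The authors deposited raw UMI count matrices, processed with Cell Ranger 8.0.1 on mm10 per the file headers and the submitters' processing notes, with the annotation release not given in the sources used here. The members and gene lists were chosen with earlier results of these data known. UMIs were summed per library, and edgeR 4.0.16 tested groups (filterByExpr, TMM, quasi-likelihood, Benjamini-Hochberg adjusted p under 0.05), with DESeq2 1.42.0 as an alternative and interaction fits with the library as block. Library totals were 254200305 to 344421685 UMIs, of which members held 8306005 to 13353240. Between replicates of a group the squared differences of counts were 7.04 to 14.3 times those of sampling noise (chi-square per degree of freedom). P-values measure the spread between these samples. Shares were compared by exact two-sided permutation. Genes were named by rule: Cdkn2a, Cdkn2b, Cdkn1a, Hbegf, tdTomato, the genes called, and the 10 smallest p-values in each direction; list genes were added to show each group. Gene positions are from GENCODE M21, where 30934 of 31054 features matched. Some genes are not reported here by name, though counts over lists include them.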

Additional observations from a re-analysis of the deposited data

Results flagged for a closer look

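A signal appeared outside the gene test in tdTomato, a red fluorescent reporter that the reference lists and the labels' genotypes do not name. Members of the p16-DTR-labelled libraries held 19 tdTomato UMIs, at 0.722, 0.426 and 0.723 CPM (UMIs per 1000000), and members of those labelled control held 0. The gene was too low for the test.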

How the results depend on the processing

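With all members the count of 0 called genes became 80 with DESeq2, 1 without a filter on low counts, 4 under the planned doublet rule (which kept 188 members), 17 after the removal described above, and 0 to 1 leaving out a library each in turn (1, Cdkn2a, without control replicate 1). After that removal the count of 17 became 83 with DESeq2 and 9 to 47 leaving out a library each in turn (28 without p16-DTR replicate 1, 9 without p16-DTR replicate 2, 10 without control replicate 1 and 47 without control replicate 3). Cdkn2a passed in 3 of 15 alternatives: without a filter (log2 fold change 5.62, adjusted p = 0.00902), after the removal (fitted 9.46, adjusted p = 4.87e-05) and when control replicate 1 was left out (5.00, adjusted p = 0.0185). Over the 15 alternatives its adjusted p was 4.87e-05 to 0.785, and leaving out a library each gave log2 fold changes of 5.00 to 6.05. The interaction with CD23-negative B cells gave 16 genes without a filter. Cdkn1a ranged from -0.46 to 0.24 leaving out a library each, Atp6v0a1 was 0.10 under the planned doublet rule, and the heavy V gene difference was 0.059 counting V genes from 1 UMI. The cause was not tested. Of 548 values for 34 other named genes, 514 kept direction and side of the threshold, 32 passed it and 2 reversed.

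The deviations of same-numbered samples had r of 0.18, -0.027 and 0.12 over genes, so the numbers were not taken as pairs. A replicate block gave 0 called genes, Cdkn2a at an adjusted p of 0.501, and share p-values of 0.5 (of B cells), 0.25 (of Ptprc-positive barcodes) and 0.25 (Cdkn2a), where 0.25 is the smallest possible. The planned doublet rule was not run for the Ptprc share, and it left too few Cdkn2a UMIs to test. DESeq2 gave no adjusted p for Cdkn2a. Shallow genes limit detection: tdTomato and Cdkn2b were untested.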
